A study of Mus musculus with 10 samples.

Results

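The subunit genes of mitochondrial oxidative phosphorylation were followed in mouse liver under MI-883. Members were chosen by symbol and gene type alone, as protein-coding genes of the Nduf, Sdh, Uqcr, Cyc1, Cox and Atp5 families that reached 60 counts in the sum of the 10 livers. This gave 78 genes among 13219 genes tested and 16647 genes listed. Complex I had 39 of them, complex II 3, complex III 8, complex IV 11 and complex V 17.

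The RNA came from whole liver of 5 control and 5 MI-883-treated male mice, each liver from another animal. All mice were of the humanized PXR-CAR-CYP3A4/3A7 model, were put on a high-fat diet (HFD) at an age of 10 to 15 weeks, and had eaten it for 8 weeks before treatment. MI-883, a ligand of the xenobiotic receptors CAR and PXR, was given at 5 mg/kg by oral gavage 3 times per week for 4 weeks, while control mice received its vehicle of DMSO, PEG300 and corn oil and both groups stayed on HFD. The subunit genes read here are mouse genes in an animal with human receptors, which limits the groups as a model. The comparison asks whether mRNA levels of the respiratory chain differed between these groups.

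In oxidative phosphorylation, complex I takes electrons from NADH and complex II takes them from succinate, and both pass them to ubiquinone. Complex III moves the electrons on to cytochrome c, complex IV hands them to oxygen, and complex V makes ATP from the proton gradient that complexes I, III and IV build up. Hepatocytes are rich in mitochondria and use this ATP for gluconeogenesis, urea synthesis and lipid export. Most subunits are encoded in the nucleus, and the 13 subunits encoded by mitochondrial DNA were not analysed here.

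No subunit gene passed the test after MI-883, although nearly all of them had a fitted level somewhat below that of control livers. With the quasi-likelihood test of edgeR, adjusted over all tested genes, 0 of the 78 subunit genes had an adjusted P under 0.05, against a background of 1.03% of all tested genes in either direction, 0.265% lower and 0.764% higher. With DESeq2, 1 subunit gene, Ndufv3, was called lower, against a background of 1.3% lower and 3.5% in either direction. At an unadjusted P under 0.05 in edgeR, 30 subunit genes (38.5%) lay lower, against 7.49% of all tested genes, and 0 lay higher. DESeq2 gave 34 such genes, against 7.6% of all tested genes. The fitted log2 fold change was below 0 for 75 of the 78 genes, against 49% of all tested genes, and its median was -0.20 beside 0.0045 for all tested genes. That median corresponds to 0.868 of the control level. The 95% intervals of 76 of the 78 genes lay within a 2-fold change, so a larger change was outside the interval for all but Ndufb4c and Cox6b2, which had the lowest counts. In bulk liver, fewer hepatocytes and less of these mRNAs per hepatocyte cannot be told apart.

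**Figure D1:**
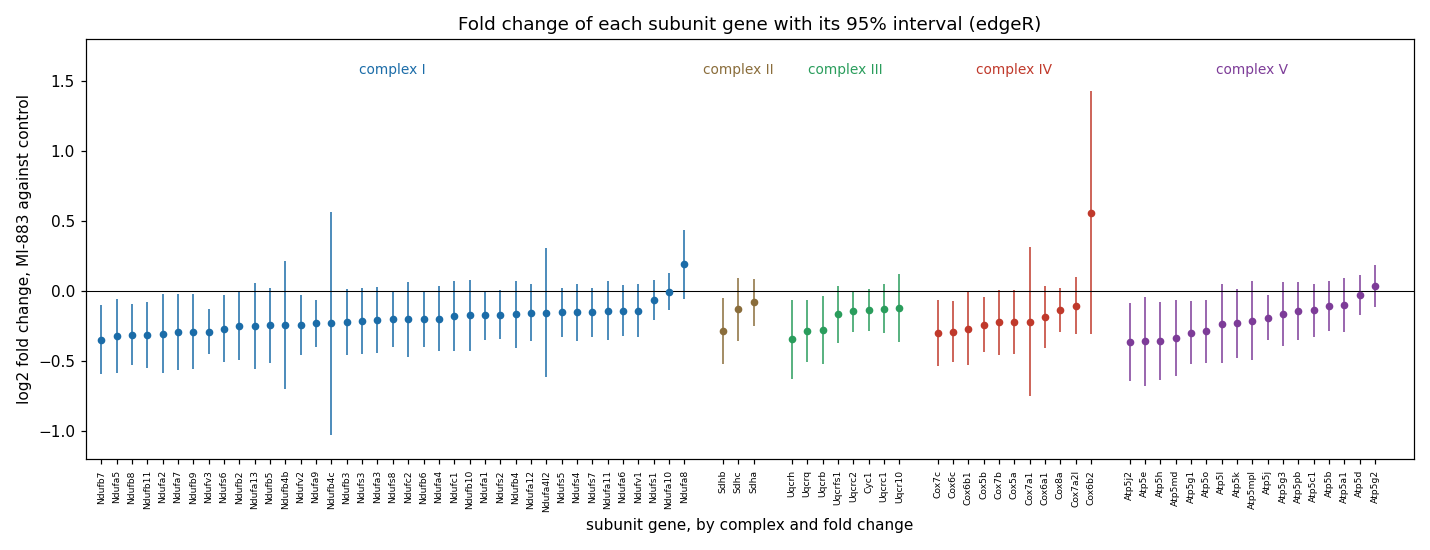
Log2 fold change of each subunit gene (vertical axis, MI-883 against control, edgeR) by complex along the horizontal axis, where points are estimates and bars are 95% intervals over 5 livers per group. Of the 78 points, 75 lie below 0, 30 intervals end below 0 and no interval starts above 0.

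The shift was not spread evenly over the animals. Counts scaled for library size by the TMM method (CPM) were compared with their mean over the 10 livers for each gene on the log2 scale, and the median of these deviations was taken over the 78 subunit genes. In control livers 1 to 5 this median deviation was 0.026, 0.081, 0.039, 0.30 and 0.099. In MI-883 livers 1 to 5 it was 0.018, 0.026, -0.34, 0.033 and -0.30. MI-883 livers 1, 2 and 4 thus lay close to the lower control livers, MI-883 livers 3 and 5 lay below all others, and control liver 4 lay above all others. MI-883 liver 3 held the lowest value of 55 subunit genes and MI-883 liver 5 that of 16, while control liver 4 held the highest value of 58.

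MI-883 livers 3 and 5 were the lowest in every complex and control liver 4 was the highest, though in complex II control liver 4 lay close to control liver 5 at 0.13 and MI-883 liver 4 at 0.11. MI-883 liver 3 deviated by -0.34 in complex I, -0.36 in complex II, -0.28 in complex III, -0.37 in complex IV and -0.34 in complex V. MI-883 liver 5 deviated by -0.30, -0.29, -0.27, -0.30 and -0.34 in the same order. Control liver 4 deviated by 0.29, 0.16, 0.31, 0.32 and 0.36. MI-883 livers 3 and 5 were below every control liver for 67 subunit genes, and in 29 of these the other MI-883 livers were all at or above the lowest control liver. Summed over the members, CPM were 16048 ± 1042 in control livers and 14094 ± 1632 in MI-883 livers (mean ± SD, n = 5 each). The sums of MI-883 livers 3 and 5 were 12030 and 12648, and those of the other 3 MI-883 livers were 14957, 15253 and 15581, beside a lowest control sum of 15160.

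Without these livers the shift became smaller. Leaving out control liver 4 left 9 subunit genes lower at an unadjusted P under 0.05 in edgeR, and leaving out MI-883 liver 3 or MI-883 liver 5 left 13 each. In the same order, 5.51%, 5.21% and 5.51% of all tested genes lay lower in these fits. Without both MI-883 livers the median log2 fold change was -0.079 with 2 genes lower and 1 higher, and without control liver 4 as well it was -0.037, with 1 gene lower and 56 genes below 0. Of all tested genes, 4.37% lay lower without both MI-883 livers and 3.99% without control liver 4 as well. Both of these removals were chosen after seeing the data. No subunit gene was called by edgeR in either.

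**Figure D2:**
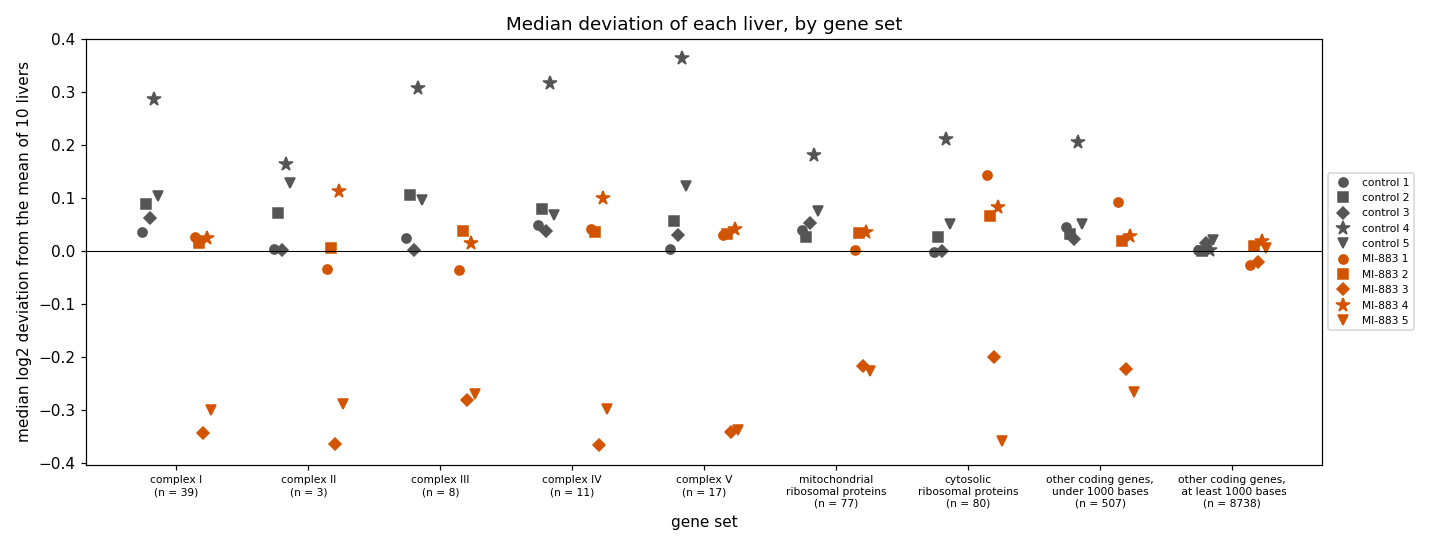
Median log2 deviation from the mean of the 10 livers (vertical axis) for each liver in 9 gene sets (horizontal axis), with control livers in grey and MI-883 livers in orange. In the 5 complexes MI-883 livers 3 and 5 lie between -0.37 and -0.27 and control liver 4 between 0.16 and 0.36, and these livers part in the same direction in ribosomal protein genes and other short coding genes, but not in the other coding genes of at least 1000 bases.

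Other short transcripts parted the same livers. The longest transcript of a subunit gene had a median of 823.5 bases, against 3005 for all tested genes. Among 507 other coding genes with a transcript under 1000 bases and at least 5 CPM, MI-883 livers 3 and 5 deviated by -0.22 and -0.27 and control liver 4 by 0.21. Their median log2 fold change was -0.13, with 407 of 507 genes (80.3%) below 0. Among 8738 other coding genes of at least 1000 bases, these livers deviated by -0.020, 0.0052 and 0.0019, with a median fold change of -0.011 on the log2 scale. The 80 cytosolic ribosomal protein genes, which build the ribosomes of the cytoplasm, gave a median of -0.10, with deviations of -0.20, -0.36 and 0.21 in the same livers. Sets with longer transcripts parted them too. The 28 subunit genes of at least 1000 bases deviated by -0.30, -0.20 and 0.24, the complex I assembly factors, with a median length of 1623 bases, by -0.19, -0.13 and 0.29 and the mitochondrial ribosomal protein genes, with a median of 1280 bases, by -0.22, -0.23 and 0.18.

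Length did not separate the subunit genes fully. The 48 subunit genes with a transcript under 1000 bases had a median log2 fold change of -0.22, and the 28 with a longer transcript had -0.15, with all 28 below 0. Across 76 subunit genes with a known length, Spearman's rho between length and log2 fold change was 0.311, and across 13185 tested genes it was 0.215. These are descriptions across genes that share the same libraries. With the trend of counts over transcript length removed in each liver, the median of the subunit genes was -0.13, with 69 of 78 below 0, 19 lower and 2 higher at an unadjusted P under 0.05, and 0 called by edgeR. In this setting the median of all tested genes was -0.022, and 9.78% of them lay lower at the same threshold. The part of transcript length in the remaining difference between livers was not tested.

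**Figure D3:**
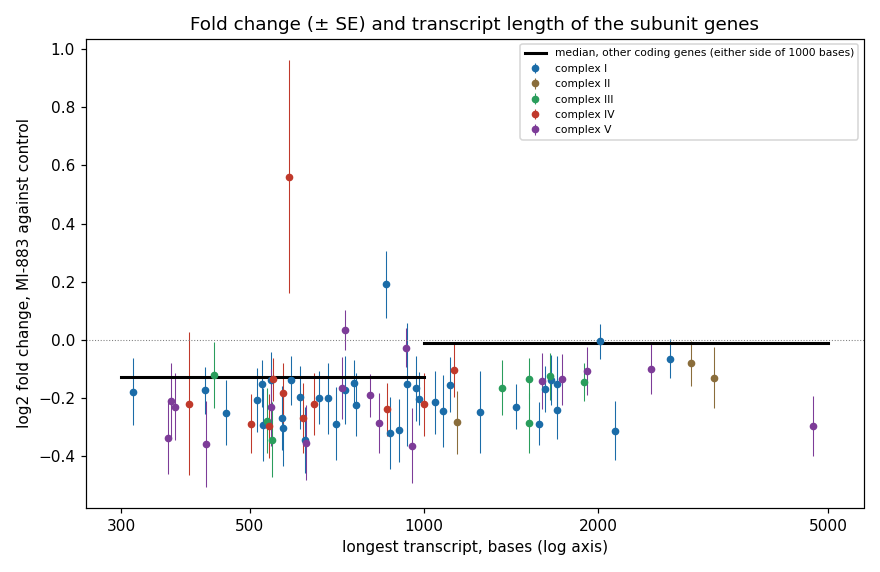
Log2 fold change of 76 subunit genes (vertical axis, points with SE bars, edgeR) against the length of the longest transcript in bases (horizontal log axis), coloured by complex. The black lines are the medians of other coding genes, -0.13 below and -0.011 from 1000 bases upward, and the 28 subunit genes of at least 1000 bases all lie below 0.

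Tissue markers were read as a check of the samples. Sums of markers are CPM by library total, without the TMM factors used elsewhere, which ran from 0.949 to 1.10 over the livers. All 8 hepatocyte markers were measured. Their summed level ranged from 76278 to 83381 CPM in control livers and from 67877 to 73684 CPM in MI-883 livers. The groups did not overlap on this scale, though none of the 8 genes was called. They overlap on the TMM scale, where each sum is divided by its factor. There MI-883 liver 2 (73684 CPM, factor 0.961) lies above control liver 2 (76278 CPM, factor 1.01). Bile duct markers summed to 23.7 to 122 CPM in control and 33.5 to 209 CPM in MI-883 livers, with the highest sum in MI-883 liver 3. The next highest were 155 CPM in MI-883 liver 1 and 122 CPM in control liver 1, and MI-883 liver 5 had 54.2 CPM. The sums of the other lists overlapped, with 200 to 313 against 182 to 398 CPM for Kupffer cells and leukocytes, 217 to 374 against 255 to 459 CPM for stellate cells, 95.6 to 122 against 106 to 141 CPM for endothelial cells and 124 to 197 against 100 to 166 CPM for erythroid cells. Adipocyte markers summed to 51.8 to 82.3 and 35.3 to 97.5 CPM, with Ucp1 and Plin1 at 3 counts or fewer in each liver. All 5 measured markers of striated muscle were at 3 counts or fewer in each liver. No gene of these lists was called, and their part in the result was not tested.

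Levels between subunit genes were compared per length, as CPM per kilobase of the longest transcript (mean ± SD, n = 10 livers). Complex V supplied the most abundant mRNAs, with Atp5g3, a gene for the proton-carrying c subunit, at 778 ± 98.6 and Atp5b, the catalytic beta subunit, at 687 ± 50.6 CPM per kilobase. Ndufa4 followed at 597 ± 82.9. Its symbol places it in complex I, although its protein is now regarded as a subunit of complex IV. Cox6a1, a small subunit of complex IV, was at 563 ± 69.6, Atp5e, the epsilon subunit in the central stalk of complex V, at 547 ± 115, and Atp5a1, the alpha subunit, at 523 ± 43.7 CPM per kilobase. Neighbours in this order differed by less than the larger of their SDs, except Atp5b and Ndufa4. Median levels per complex were 126 for complex I, 213 for complex II, 258 for complex III, 326 for complex IV and 228 CPM per kilobase for complex V.

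A few subunit mRNAs stood far below the rest. Cox6b2, the testis form of a complex IV subunit, was at 0.427 ± 0.170 CPM per kilobase, against 448 ± 74.4 for its ubiquitous counterpart Cox6b1. Cox7a1, the form of heart and skeletal muscle, was at 3.84 ± 1.02, and Ndufa4l2, a paralog of Ndufa4, at 2.28 ± 0.506. Ndufa8 and Ndufa12, which have no tissue-specific counterpart and were named after their values were seen, were also low at 7.21 ± 0.907 and 8.76 ± 0.882 CPM per kilobase, and Ndufa12 would be at 17.2 on its shortest transcript. Of the c subunit genes, Atp5g2 was at 120 ± 7.79 and Atp5g1 at 28.6 ± 4.59, but the latter value rests on a longest transcript of 4715 bases and would be 226 on the shortest of 596 bases.

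**Figure D4:**
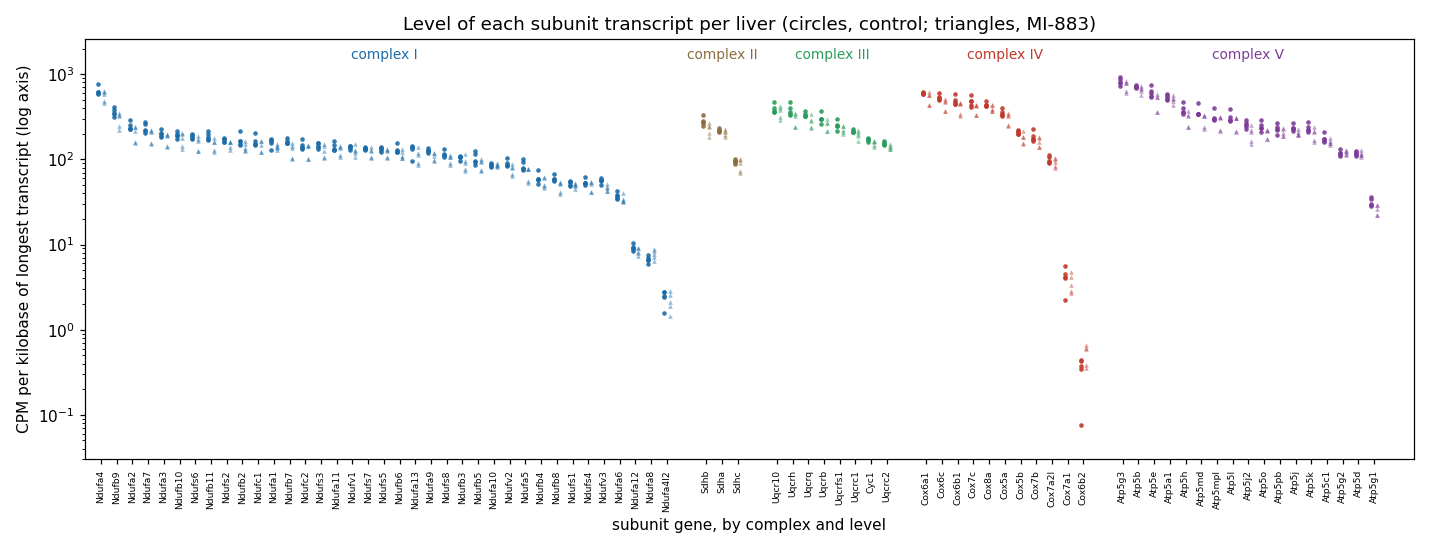
Level of each subunit mRNA in CPM per kilobase of the longest transcript (vertical log axis) in the 10 livers, by complex along the horizontal axis, with circles for control and triangles for MI-883 livers. Atp5g3 at 778 CPM per kilobase is the highest on average and Cox6b2 at 0.427 the lowest, and the circles and triangles of a gene overlap for all but 4 genes.

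Another 5 subunit genes were listed but stayed under the minimum of 60 counts. Cox6a2 and Cox8b, muscle forms, had 11 and 34 counts summed over the 10 livers, and low counts of such forms in liver are usual. Sdhd, a membrane anchor of complex II that every cell with a respiratory chain uses, had 7 counts, and Uqcr11, the smallest subunit of complex III, also had 7. Cox7a2, the liver form of its subunit, had 37 counts. By contrast Sdhb, another subunit of complex II, had 81481 counts in the same livers. The transcripts of Sdhd, Uqcr11 and Cox7a2 share no stretch of 100 bases with transcripts of other genes and their exons overlap no other gene, and the reason for their low counts was not tested. Ndufb1, Cox7b2 and Cox8c, which the rule would also take, were not analysed here.

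In complex I, NADH is oxidized by a matrix arm and protons are moved by a membrane arm, and a ring of accessory subunits surrounds both. The median log2 fold change over its 39 genes was -0.20, with 38 below 0, 0 called and 14 lower at an unadjusted P under 0.05 in edgeR. The 7 core subunits encoded in the nucleus had a median of -0.17, and the 32 other genes, counted as accessory subunits, had -0.21. These 32 were taken by symbol and hold Ndufa4, its paralog Ndufa4l2, and Ndufb4b and Ndufb4c, which had no known transcript length. The GENCODE annotation labels Ndufb4c a processed pseudogene.

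Ndufv3, an accessory subunit beside the NADH-binding site (chromosome 17, 31520115 to 31531326 in GRCm38), gave the smallest P of all members. Its CPM were 79.7, 87.9, 90.3, 96.4 and 89.5 in control livers and 75.6, 72.2, 66.4, 81.4 and 68.05 in MI-883 livers. MI-883 liver 4 lay above control liver 1, and the other MI-883 livers lay below all controls, so the groups overlapped by this pair alone. The mean was 88.8 ± 6.0 against 72.7 ± 6.02 CPM (SD, n = 5 each), a log2 fold change of -0.29 (SE 0.0737, 95% interval -0.45 to -0.13). It had an adjusted P of 0.0914 in edgeR and 0.0159 in DESeq2, and 0.0538 to 0.515 over the 20 other settings of edgeR.

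Ndufb7, an accessory subunit of the membrane arm facing the intermembrane space (chromosome 8, 83566758 to 83571623), had 97.8, 96.5, 97.9, 111 and 101 CPM in control livers. In MI-883 livers it had 83.9, 89.6, 63.3, 96.3 and 64.3 CPM. Every MI-883 liver lay below every control liver, by a margin of less than 1 CPM for MI-883 liver 4, while livers 3 and 5 lay far lower than the rest. The log2 fold change was -0.35 (SE 0.113), with an adjusted P of 0.173 in edgeR and an unadjusted P of 0.00794 in the exact two-sided permutation test, the smallest that this design can give.

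Ndufb8, another subunit of the membrane arm (chromosome 19, 44548571 to 44555442), had 118, 126, 126, 145 and 123 CPM in control and 117, 111, 83.2, 114 and 89.6 CPM in MI-883 livers. Here too the groups did not overlap, and MI-883 liver 1 was close to control liver 1. The log2 fold change was -0.31 (SE 0.101), with an adjusted P of 0.168 in edgeR. Part of its exons (6.26%) overlaps the gene Gm20538 on the same strand, so that reads there could belong to either.

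Groups without overlap were seen for 4 subunit genes, Ndufb7, Ndufb8, Ndufa9 and Atp5md, with every MI-883 liver below every control liver. This is 5.13% of the members, against 1.93% of all tested genes, and 0 members had every MI-883 liver above, against 2.05%. Ndufa9, a subunit where the arms of complex I meet, was named after its values were seen. Its CPM were 180, 180, 174, 198 and 184 in control and 160, 172, 137, 170 and 144 in MI-883 livers, a log2 fold change of -0.23 (SE 0.0777, adjusted P = 0.182 in edgeR). A gene on the opposite strand overlaps 4.64% of its exons.

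Other complex I genes named by the rule had overlapping groups. Ndufb9 was at 254 ± 24.9 and 208 ± 40.1 CPM in control and MI-883 livers, Ndufa2 at 142 ± 15.9 and 115 ± 23.6 CPM and Ndufa7 at 123 ± 15.5 and 101 ± 18.2 CPM. Their log2 fold changes were -0.29, -0.30 and -0.29, with adjusted P of 0.288, 0.287 and 0.281 in edgeR. Part of the exons of Ndufb9 (28.6%) overlaps the gene Gm49356 on the same strand, so its counts are less certain. Ndufa4 was at 389 ± 43.4 and 340 ± 48.2 CPM (log2 fold change -0.20, SE 0.107). Its paralog Ndufa4l2 ran from 1.47 to 2.59 CPM in control and from 1.35 to 2.67 CPM in MI-883 livers, with its highest value in MI-883 liver 1 (log2 fold change -0.15, SE 0.212). Ndufa10, an accessory subunit with a nucleoside kinase fold that was named after its values were seen, had the change nearest to 0 in the complex, with 173 ± 7.96 and 173 ± 7.08 CPM and a 95% interval of -0.14 to 0.13. Ndufa8 was the single gene of complex I above 0, with 5.80 ± 0.518 and 6.63 ± 0.820 CPM, and the interval of its log2 fold change of 0.19 ran from -0.056 to 0.44.

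**Figure D5:**
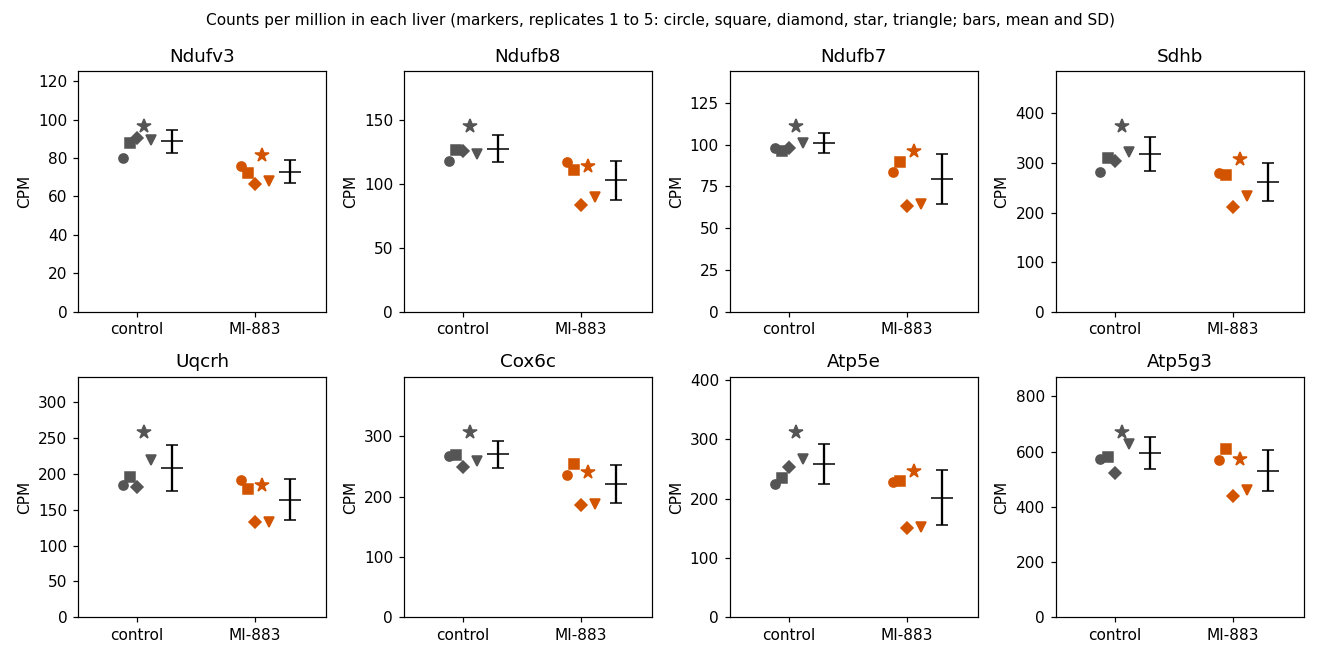
CPM (vertical axes, from 0) of 8 subunit genes in each liver, with control livers in grey and MI-883 livers in orange, a marker shape per replicate number, and mean with SD beside them. MI-883 livers 3 (diamonds) and 5 (triangles) are the lowest in all 8 panels and control liver 4 (stars) is the highest, and Ndufb7 and Ndufb8 are the panels without overlap of the groups.

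Complex II also belongs to the tricarboxylic acid cycle, where it turns succinate into fumarate. Sdhb, its iron-sulfur subunit (chromosome 4, 140961271 to 140979198), had 283, 310, 303, 374 and 322 CPM in control livers. In MI-883 livers it had 280, 275, 211, 308 and 234 CPM. MI-883 livers 1, 2, 3 and 5 lay below all controls, MI-883 liver 4 lay among them. The log2 fold change of Sdhb was -0.28 (SE 0.109, adjusted P = 0.238 in edgeR). Sdha, the flavoprotein that oxidizes succinate, was at 634 ± 25.5 and 599 ± 51.0 CPM, and its log2 fold change of -0.081 had a 95% interval of -0.25 to 0.086. Sdhc, a membrane anchor, was at 301 ± 14.9 and 275 ± 44.8 CPM (log2 fold change -0.13, SE 0.104), and its SD in MI-883 livers exceeded the difference of the means. Without MI-883 livers 3 and 5 its log2 fold change was 0.022.

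Complex III is built from catalytic subunits with heme or iron-sulfur centres and from core and small structural proteins. Of its 8 genes, 8 were below 0, 0 were called and 4 lay lower at an unadjusted P under 0.05 in edgeR, with a median of -0.15. Uqcrh, the hinge protein that holds cytochrome c1 (chromosome 4, 116066965 to 116075070), had 184, 196, 182, 258 and 219 CPM in control and 191, 178, 133, 184 and 132 CPM in MI-883 livers. MI-883 livers 1 and 4 lay within the control range, and livers 3 and 5 had about the same low level. The log2 fold change was -0.34 (SE 0.130, adjusted P = 0.23 in edgeR).

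The other small subunits of complex III had overlapping groups. Uqcrq was at 512 ± 30.7 and 420 ± 65.8 CPM and Uqcrb at 163 ± 21.5 and 135 ± 19.6 CPM, with log2 fold changes of -0.29 and -0.28 and adjusted P of 0.207 and 0.257 in edgeR. Uqcr10 was at 170 ± 19.6 and 156 ± 25.04 CPM, and its log2 fold change of -0.12 turned to 0.052 with the length trend removed. Uqcrc1 was at 354 ± 14.2 and 325 ± 34.8 CPM, Uqcrc2 at 294 ± 13.6 and 266 ± 15.05 CPM, the Rieske iron-sulfur protein Uqcrfs1 at 342 ± 39.2 and 305 ± 29.8 CPM and Cyc1, cytochrome c1, at 259 ± 10.2 and 236 ± 17.3 CPM. Their log2 fold changes were -0.13, -0.14, -0.16 and -0.13, with adjusted P between 0.318 and 0.482 in edgeR.

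In complex IV the catalytic core is encoded by mitochondrial DNA and the members are the accessory subunits around it. Their median log2 fold change was -0.22, with 10 of 11 below 0, 0 called and 4 lower at an unadjusted P under 0.05 in edgeR. Cox6c had 267, 270, 248, 307 and 258 CPM in control and 236, 254, 186, 241 and 187 CPM in MI-883 livers. MI-883 liver 2 lay above control liver 3, and the other 4 MI-883 livers lay below all controls. The log2 fold change of Cox6c was -0.29 (SE 0.101, adjusted P = 0.197 in edgeR).

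Cox7c, Cox6b1 and Cox5b gave similar values. Cox7c was at 258 ± 32.1 and 210 ± 29.2 CPM (log2 fold change -0.30), Cox6b1 at 302 ± 35.1 and 251.1 ± 43.4 CPM (-0.27) and Cox5b at 181 ± 9.72 and 153 ± 21.4 CPM (-0.24), with adjusted P of 0.219, 0.307 and 0.237 in edgeR. Of the transcript of Cox7c, 44.4% also occurs in other transcripts, so part of its reads may not have been placed. Cox6a1 was at 342 ± 7.26 and 301 ± 49.7 CPM, where the control livers lay close together and the SD of MI-883 livers exceeded the difference. Cox7b was at 186 ± 25.5 and 159 ± 20.6 CPM, Cox8a at 241 ± 13.4 and 220 ± 18.1 CPM, and Cox7a2l, which helps complexes III and IV to join in supercomplexes, at 112 ± 11.0 and 105 ± 12.3 CPM. Their log2 fold changes were -0.22, -0.13 and -0.10. Cox6b2 was the single gene of complex IV above 0, with 0.0439 to 0.261 CPM in control and 0.205 to 0.390 CPM in MI-883 livers, and a 95% interval of -0.30 to 1.43.

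Complex V consists of a catalytic head, a rotating ring of c subunits in the membrane, and a stator with small membrane subunits. Over its 17 genes the median log2 fold change was -0.21, with 16 below 0, 0 called and 7 lower at an unadjusted P under 0.05 in edgeR. Without control liver 4 this median was -0.14. The 5 genes of the head and central stalk had a median of -0.11, the 3 genes of the c ring -0.17 and the 9 other subunits -0.23, a description with no test.

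Atp5j2, the f subunit in the membrane (chromosome 5, 145183704 to 145191541), had the lowest log2 fold change of all members. It had 214, 236, 255, 279 and 241 CPM in control and 209, 201, 143, 241 and 158 CPM in MI-883 livers. MI-883 liver 4 lay within the control range and livers 3 and 5 lay far below. The log2 fold change was -0.36 (SE 0.130, adjusted P = 0.204 in edgeR).

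Atp5e had 225, 234, 254, 312 and 267 CPM in control and 228, 230, 151, 247 and 153 CPM in MI-883 livers, so 3 MI-883 livers lay within the control range. Its log2 fold change was -0.36 (SE 0.147, adjusted P = 0.270 in edgeR). Atp5h, the d subunit of the stator, was at 241 ± 31.7 and 188 ± 35.4 CPM (log2 fold change -0.35, adjusted P = 0.213 in edgeR). Atp5md, a small membrane subunit that was named after its values were seen, was at 132 ± 18.3 and 105 ± 18.6 CPM (log2 fold change -0.34, adjusted P = 0.222 in edgeR), and its MI-883 livers all lay below the controls. Other transcripts share 32.7% of the Atp5h transcript and 28.5% of the Atp5md transcript, so the counts of both genes are less certain.

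The subunits of the catalytic hexamer, Atp5a1 and Atp5b, differed least among the abundant mRNAs of complex V. Atp5b was at 1365 ± 47.3 and 1267 ± 113 CPM and Atp5a1 at 1336 ± 87.3 and 1248 ± 117 CPM, with 95% intervals of -0.29 to 0.070 and -0.29 to 0.091 on the log2 scale. The c subunit is encoded by 3 genes whose mature protein is the same. Atp5g3 was at 595 ± 56.9 and 531 ± 74.9 CPM, Atp5g1 at 149 ± 17.6 and 121 ± 16.3 CPM and Atp5g2 at 86.6 ± 6.77 and 88.8 ± 4.92 CPM. Their log2 fold changes were -0.17, -0.30 and 0.035. Atp5g2 shares 86.4% of its transcript with Gm10175 and another gene, so its counts are uncertain.

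Variation within the MI-883 group was the larger for most members. The coefficient of variation of CPM over 5 livers had a median of 9.78% in control and 14.1% in MI-883 livers, and it was larger in MI-883 livers for 63 of the 78 genes. The share over all tested genes is not given here, and the 78 genes share the same livers. In the MI-883 group livers 3 and 5 had median deviations of -0.34 and -0.30, beside 0.018 to 0.033 in the others.

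The promoters of these genes are known for sites of the regulators NRF1, YY1, ERR and the ETS family, and a few short motifs were searched, on both strands, in RefSeq windows from 250 bases before to 50 bases after the start of transcription (GRCm38.p6). Windows were found for 64 of the 78 members. The NRF1 motif GCGCATGCG was present in 7 of the 64 genes (10.9%), against 3.86% of tested genes with a window and 1.75% of all windows. The YY1 motif AAGATGGCG was present in 7 genes (10.9%), against 3.35% of tested genes and 1.40% of all windows, the ETS motif CCGGAAG in 15 (23.4%), against 18.9% and 8.86%, and the ERR motif TCAAGGTCA in 1 (1.56%), Atp5g3, against 0.320% and 0.423%. In a palindromic site the NRF1 motif overlaps itself on the other strand. Windows of 3 members are printed as examples, chosen after the search, with the motifs in capitals. Cox6a1 (chr5:115348909-115349208, minus strand) and Atp5k, the e subunit of complex V (chr5:108434350-108434649, minus strand), hold an NRF1 and an ETS motif, and Ndufa9 (chr6:126849095-126849394, minus strand) holds a YY1 motif after its start.
Cox6a1: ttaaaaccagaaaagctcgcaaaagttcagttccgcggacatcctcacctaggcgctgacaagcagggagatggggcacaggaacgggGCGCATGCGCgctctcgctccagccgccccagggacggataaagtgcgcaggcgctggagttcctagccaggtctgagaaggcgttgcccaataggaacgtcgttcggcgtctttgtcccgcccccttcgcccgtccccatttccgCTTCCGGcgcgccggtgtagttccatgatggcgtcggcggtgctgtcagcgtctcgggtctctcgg
Atp5k: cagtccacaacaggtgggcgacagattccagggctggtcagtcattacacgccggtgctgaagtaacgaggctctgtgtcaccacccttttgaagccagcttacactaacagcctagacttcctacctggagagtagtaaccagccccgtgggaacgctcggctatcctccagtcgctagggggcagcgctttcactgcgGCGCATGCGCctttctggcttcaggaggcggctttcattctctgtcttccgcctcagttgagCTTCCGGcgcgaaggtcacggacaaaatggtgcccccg
Ndufa9: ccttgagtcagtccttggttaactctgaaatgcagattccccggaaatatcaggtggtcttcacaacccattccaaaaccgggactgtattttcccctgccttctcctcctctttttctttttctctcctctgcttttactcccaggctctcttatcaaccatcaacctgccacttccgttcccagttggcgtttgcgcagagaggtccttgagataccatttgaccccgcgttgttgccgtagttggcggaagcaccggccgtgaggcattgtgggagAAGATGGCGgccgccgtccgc
The 7 members with an NRF1 motif had a median log2 fold change of -0.14, and the 57 without had -0.21. The 7 with a YY1 motif had -0.19, and the 57 without had -0.21. The 15 with an ETS motif had -0.23, and the 49 without had -0.18. The gene with an ERR motif had -0.17, and the 63 without had -0.21. A match is a string of letters in this window and not a site shown to be bound.

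Genes that assemble the complexes or work beside them gave 1 call in edgeR, which called 1.03% of all tested genes. Uqcc3, an assembly factor that stabilizes cytochrome b of complex III, had 22.3, 27.1, 24.1, 25.3 and 26.3 CPM in control and 18.6, 18.9, 15.2, 21.4 and 16.2 CPM in MI-883 livers. Every MI-883 liver lay below every control liver, livers 1, 2 and 4 included. The means were 25.02 ± 1.90 and 18.1 ± 2.41 CPM, which gave a log2 fold change of -0.47 (SE 0.0940), with an adjusted P of 0.0299 in edgeR and 0.00104 in DESeq2. The call was lost in 7 of the 10 fits that left out a liver, namely without control livers 2, 3, 4 or 5 or MI-883 livers 2, 3 or 5, and over the 20 other settings of edgeR the adjusted P ranged from 0.0161 to 0.313.

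In the 13 assembly factors of complexes II, III and V, Uqcc3 was the single gene that edgeR called, and DESeq2 also called Uqcc2, needed to make cytochrome b, at 29.9 ± 1.67 and 23.2 ± 3.53 CPM (log2 fold change -0.37, adjusted P = 0.0288 in DESeq2 and 0.103 in edgeR). Of the 16 tested assembly factors of complex I, 0 were called by either tool and 5 lay lower at an unadjusted P under 0.05 in edgeR, with a median of -0.15. Of 22 assembly factors of complex IV, 0 were called and 5 lay lower at an unadjusted P under 0.05, with a median of -0.14. Over all tested genes, 7.49% lay lower at an unadjusted P under 0.05 in edgeR, and DESeq2 called 1.3% lower. The subunits that the symbol rule leaves out were also not called. Cox4i1, an accessory subunit of complex IV, was at 624 ± 34.4 and 531 ± 85.4 CPM (log2 fold change -0.23, adjusted P = 0.319 in edgeR), Ndufab1, an acyl carrier subunit of complex I, changed by -0.12 and Atpif1, the inhibitor of complex V, by -0.16 on the log2 scale, and Cox4i2 was below the count minimum.

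Among 19 electron carriers and other entry points to ubiquinone, edgeR called 0 and DESeq2 called 5 lower, against 1.3% of all tested genes. These were Etfa and Etfdh, which bring electrons from fatty acid oxidation to ubiquinone, the sulfide oxidase Sqor, and Coq8a and Coq9 of ubiquinone synthesis. Etfdh was at 303 ± 16.3 and 256 ± 11.3 CPM without overlap (log2 fold change -0.24, adjusted P = 0.00424 in DESeq2 and 0.113 in edgeR), and Sqor at 223 ± 27.9 and 170 ± 20.6 CPM without overlap (-0.39, adjusted P = 0.0201 in DESeq2 and 0.105 in edgeR). Etfa changed by -0.25, Coq8a by -0.29 and Coq9 by -0.19 on the log2 scale, with adjusted P of 0.0162, 0.0124 and 0.0303 in DESeq2 and 0.142, 0.104 and 0.162 in edgeR. Cycs, cytochrome c itself, was at 85.5 ± 7.96 and 82.6 ± 7.87 CPM (log2 fold change -0.051). The median of the list was -0.054, with 6 lower and 0 higher at an unadjusted P under 0.05 in edgeR. Of all tested genes, 7.49% lay lower at this threshold.

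The remaining lists held no call of edgeR. Over all tested genes, 7.49% lay lower and 15.6% lay in either direction at an unadjusted P under 0.05 in edgeR. DESeq2 called 3.5% of all tested genes in either direction and 1.3% lower. Of 19 regulators of mitochondrial biogenesis, 0 were called by either tool and 2 lay lower at an unadjusted P under 0.05, with a median of -0.079. The coactivator Ppargc1a changed by -0.19, Nrf1 by 0.069 and Tfam, which packs mitochondrial DNA, by -0.18 on the log2 scale. In the tricarboxylic acid cycle, 7 of 14 genes lay below 0 and the median was 0.021, with 2 lower and 3 higher at an unadjusted P under 0.05, and DESeq2 called Mdh2, mitochondrial malate dehydrogenase, higher, at 247 ± 5.47 and 286 ± 22.8 CPM (adjusted P = 0.0471 in DESeq2 and 0.175 in edgeR). Of 8 nucleotide, phosphate and uncoupling carriers and porins, 0 were called, 0 had an unadjusted P under 0.05 and the median was 0.026. Of 77 mitochondrial ribosomal protein genes, 24 lay lower and 1 higher at an unadjusted P under 0.05 in edgeR, the median was -0.15, and DESeq2 called Mrps9 lower (26.9 ± 1.45 and 21.9 ± 1.43 CPM, adjusted P = 0.00920 in DESeq2 and 0.0581 in edgeR). Of the 80 cytosolic ribosomal protein genes, 0 were called by either tool and 0 had an unadjusted P under 0.05.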

How the data were processed

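Total RNA of 10 livers was sequenced as stranded paired-end libraries on a NovaSeq6000. The submitters' processing notes name fastp 0.23.0, featureCounts and mm10. The authors aligned the reads with STAR, counted them per gene with featureCounts and deposited the raw counts per Entrez gene without normalization. Versions of STAR and featureCounts, the annotation and the strand setting are not given in the sources used here. Library totals were 23513665 to 36221514 counts, of which members took 1.31% to 1.69%. The floor of 3 counts and the precision from these totals cover counting error only.

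Livers were grouped by their labels. Symbols and positions came from RefSeq on GRCm38.p6 (16644 of 16647 genes matched) and lengths, for 76 of the 78 members, from GENCODE M21 transcripts paired with RefSeq accessions. Genes with at least 60 summed counts were tested with edgeR 4.0.16 in R 4.3.3 (TMM, quasi-likelihood test, condition as the only term), with Benjamini-Hochberg adjustment over 13219 genes and a threshold of 0.05. SEs are the log2 fold change divided by the root of F. Mean log2 CPM (pseudocount 0.1) of single genes was also compared by exact permutation, two-sided. The scripts were tested on simulated counts in which 200 genes were changed by a known factor. Of these, edgeR called 1% at 1.25-fold, 66% at 1.5-fold and 98% at 2-fold, with 0%, 5.04% and 8.84% of its calls false. Alternatives were DESeq2 1.42.0, its size factors, total counts, 3 other count filters, a replicate block, removal of length or GC trends, and leaving out each liver. The shortest transcript was tried for levels per length. Leaving out MI-883 livers 3 and 5, with or without control liver 4, and running the neighbouring lists through every alternative, were chosen after seeing the data.

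The members, gene lists and tests were chosen with earlier results of these data known. Genes named were all members of complexes II and III, the 4 most abundant per length and the 3 of smallest P in complexes I, IV and V, members called by either tool, isoforms of 1 subunit, the lowest member of each complex, and in other lists the called genes, the subunits outside the symbol rule, Ppargc1a, Nrf1, Tfam and Cycs. Genes named outside this rule were chosen after their values were seen.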

Additional observations from a re-analysis of the deposited data

Results flagged for a closer look

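Among 84 groups of 5 livers tested, 4 had a liver whose gap to its nearest neighbour was above the 95% critical value of Dixon, 0.71 of the group's range. Chance would flag about 1 in 20 independent groups, which is 4.2 of 84. These groups share the same livers and some of the same genes, so the comparison cannot tell whether the 4 flags are chance. Control liver 4 had 465.9 CPM of Ndufa4, with the next control liver at 378.8 CPM. Its median log2 deviation was 0.287 over complex I, with the next at 0.105, and 0.317 over complex IV, with the next at 0.0800. Control liver 5 had 0.0439 CPM of Cox6b2, with the next at 0.204 CPM, at a level where single reads count.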

How the results depend on the processing

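No setting of edgeR called a subunit gene, and the median log2 fold change of the subunit genes was below 0 in each setting run. Of the values of named subunit genes under alternatives, 761 kept direction and side of the threshold, 11 turned direction and 1, Ndufv3 with DESeq2, passed the threshold. DESeq2 called 463 of all tested genes, 1 subunit gene and 9 genes of the neighbouring lists, against 136, 0 and 1 with edgeR. Removal of the GC trend gave 3 calls in those lists. The share of higher calls among all genes was 74.3% in edgeR, 62.9% in DESeq2, 61.8% without the length trend and 60.2% without the GC trend. Removal of the length trend turned Uqcr10 to 0.052 and Cox8a to 0.012. Scaling by total counts shifted the median of all genes to 0.049 and that of the subunit genes to -0.17. With the shortest transcript, level per length moved beyond 1 SD for 3 genes named by the rule and for Ndufa12.

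With 1 liver left out, calls among all genes ranged from 62 to 203, among subunit genes from 0 to 0 and in the neighbouring lists from 0 to 2. The medians ranged from -0.24 to -0.14 over all subunit genes, from -0.25 to -0.15 in complex I, -0.19 to -0.062 in complex II, -0.19 to -0.13 in complex III, -0.28 to -0.16 in complex IV and -0.26 to -0.14 in complex V. Complex II was at -0.062 without MI-883 liver 3 and at -0.089 without MI-883 liver 5. Leaving out 1 liver moved the log2 fold change by over 1.5 times for 16 genes named by the rule, none of them called. Without control liver 4, the changes of Uqcr10, Uqcrfs1, Ndufa4, Cox7b, Cox7a1 and Cox7a2l were -0.050, -0.097, -0.12, -0.13, -0.088 and -0.052. Without MI-883 liver 3, those of Sdha, Sdhc, Uqcrc1, Cox6a1, Atp5g3, Atp5b and Atp5a1 were -0.042, -0.062, -0.070, -0.12, -0.11, -0.061 and -0.051. The others were Ndufa4l2, Atp5g2 and Cox6b2, which ranged from -0.28 to -0.034, from 0.0038 to 0.077 and from 0.35 to 0.68. Without MI-883 livers 3 and 5 together, 49 genes of all and 0 of the neighbouring lists were called, and Sdhc turned to 0.022, Uqcr10 to 0.028 and Cox7a2l to 0.0056. Without control liver 4 as well, 43 and 0 were called, the medians were -0.037 over all subunit genes, -0.0395 in complex I, -0.021 in complex IV and -0.00878 in complex V, and Sdhc turned to 0.045, Uqcr10 to 0.098, Ndufa4 to 0.00874, Atp5g3 to 0.015, Cox7a1 to 0.047 and Cox7a2l to 0.055. Fewer livers were fitted in these settings, and other causes were not tested.

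Livers with the same replicate number did not deviate together, with correlations of 0.399, -0.113, -0.112, 0.0718 and 0.0952 over 11613 genes, and no number was its own best partner, so the numbers were not taken as a pairing. With the replicate number as a block, 89 of all genes, 0 subunit genes and 0 genes of the neighbouring lists were called, the latter with an adjusted P of 0.0530 for Uqcc3 in edgeR, and the median of the subunit genes was -0.21.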
